A study of Mus musculus with 12 samples.

Results

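The 9 genes described here make glutathione, recycle or use it, or supply its limiting precursor, cysteine: Gclc, Gclm, Gss, Gsr, Glrx, Slc7a11, Slc3a2, Cth and Cbs. They were found by gene name in both deposited count tables, each matched 1 row per table, and they are 9 of the 20844 genes listed in both tables (23186 are listed in either). All 9 passed the filter on low counts in every comparison.

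The study sequenced RNA of mouse embryonic fibroblasts, connective-tissue cells isolated at embryonic day 13.5 to 14.5, in 12 libraries that form 4 groups of 3. The medium was DMEM without pyruvate plus 10% serum, and all cells received adenovirus at a multiplicity of 500 and were collected on day 4 after infection. One pair of groups was homozygous for LSL-Nrf2D29H, in which a stop cassette keeps the allele off until Cre removes it: empty adenovirus left cells the submitters call Nrf2 knockout, and Cre adenovirus gave Nrf2 D29H cells, with a missense NRF2. The other pair was homozygous for CA-Keap1R554Q, which the submitters describe as acting as wild-type Keap1 with the empty virus and as the R554Q mutant after Cre. Neither pair includes wild-type cells given Cre, so the effects of Cre and of the mutant allele cannot be told apart. The labels do not say whether the libraries of a group came from separate embryos or cultures, so p-values measure the spread between these libraries, which may be technical.

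NRF2, encoded by Nfe2l2, is a transcription factor that binds antioxidant response elements and turns on genes for glutathione synthesis, NADPH supply and detoxification, and KEAP1 is the adaptor that has it ubiquitinated and degraded. Glutathione is built from glutamate, cysteine and glycine: glutamate-cysteine ligase, made of a catalytic subunit (Gclc) and a modifier subunit (Gclm), joins glutamate to cysteine, and glutathione synthetase (Gss) adds glycine. In cultured fibroblasts most cysteine enters as cystine through system xc-, whose transport subunit is encoded by Slc7a11 and whose chaperone heavy chain by Slc3a2, while Cbs and Cth can make cysteine from methionine.

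Depth was 14963004 to 23818477 counted reads per library, lowest in the library labelled knockout replicate 3. Nfe2l2 stood at 46.5, 40.1 and 41.2 CPM (read counts scaled to the size of the library) in the libraries the submitters call Nrf2 knockout. It stood at 49.6, 57.1 and 52.4 CPM in D29H, above all of these, and at 41.7 to 44.2 CPM in Keap1 wild type, which overlapped them. A stop cassette need not lower reads over the gene, so these levels cannot decide whether the allele was silenced. The label was not tested, and those libraries are called labelled knockout throughout. Fibroblast markers (10 genes) summed to 19405 to 25889 CPM over the 12 libraries. Macrophage markers (6 genes, each with a mean above 1 CPM) summed to 107 to 141 CPM in labelled knockout, 130 to 144 in D29H, 83.7 to 95.8 in Keap1 wild type and 58.9 to 70.4 in R554Q. Epithelial markers (6 genes) summed to 2.20 to 7.96 CPM, with Krt5 at 0 in every labelled-knockout library, and the 4 of 5 endothelial markers in both tables summed to 14.9 to 23.1 CPM. Most of the endothelial sum was Kdr, at 13.9 to 22.1 CPM, while Pecam1 was at 0 to 0.25 CPM and Cdh5 at 0 to 0.27 CPM. The macrophage sum was lower in every R554Q library than in every Keap1 wild-type library, and most of it was Lyz2, at 67.1, 75.4 and 66.0 CPM in wild type and 52.8, 43.0 and 47.9 CPM in R554Q. The other 5 markers overlapped between these groups, such as Csf1r, the receptor that macrophages depend on, at 6.63, 7.14 and 8.09 CPM in wild type and 7.36, 6.70 and 8.11 CPM in R554Q. The part of these markers in the R554Q results was not tested. In bulk RNA, fewer cells of a type and less RNA per cell cannot be told apart.

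Glutamate-cysteine ligase rose with Cre in both pairs, and its subunits moved together. The catalytic subunit Gclc (ENSMUSG00000032350, GRCm38 chr9:77754535-77794485, plus strand) stood at 20.2, 19.2 and 17.6 CPM in the labelled-knockout libraries and at 43.8, 46.5 and 44.5 CPM in D29H. It stood at 24.8, 24.7 and 26.9 CPM in Keap1 wild type and at 74.2, 75.6 and 75.3 CPM in R554Q. No library with Cre overlapped one with the empty virus in either pair. The log2 fold change was 1.24 (SE 0.10, 2.35-fold, n = 3 against 3, adjusted p = 1.39e-08 in edgeR's quasi-likelihood test with Benjamini-Hochberg adjustment over all genes) for D29H against labelled knockout and 1.56 (SE 0.08, 2.96-fold, adjusted p = 5.06e-10) for R554Q against wild type. The modifier subunit Gclm (ENSMUSG00000028124, chr3:122245557-122269984, plus strand) stood at 30.03, 27.7 and 28.8 CPM in labelled knockout and at 64.1, 59.9 and 59.2 CPM in D29H. It stood at 33.3, 39.0 and 35.6 CPM in wild type and at 97.3, 107 and 122 CPM in R554Q, again without overlap. Its log2 fold changes were 1.08 (SE 0.10, 2.11-fold, adjusted p = 7.63e-08) and 1.60 (SE 0.10, 3.03-fold, adjusted p = 4.30e-09).

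Levels of different genes were compared per gene length, in the deposited FPKM, which scale counts by listed length and library total. The ratio of Gclc to Gclm FPKM was 0.931 ± 0.058 (SD, n = 3) in labelled knockout, 1.04 ± 0.069 in D29H, 1.01 ± 0.097 in wild type and 0.985 ± 0.102 in R554Q. Transcript of the 2 subunits was therefore near 1 to 1 per length in every group while the level of both more than doubled with Cre. For both genes the 4 groups ordered as labelled knockout, Keap1 wild type, D29H, R554Q from low to high, and no neighbours in that order had overlapping libraries. Over the 12 libraries, in which the points share 4 group means, Gclm was the closest of 10345 genes to Gclc, with a root-mean-square difference of 0.12 between their centred log2 CPM. Txnrd1, thioredoxin reductase, was next (0.17 to either gene), followed by Ampd3, AMP deaminase (0.20 to Gclc and 0.19 to Gclm).

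The RefSeq promoter table (GRCm38.p6) held 6 of the 9 genes: Gclm, Gss, Glrx, Slc7a11, Slc3a2 and Cbs. Their windows, 250 bases before to 50 after the start, were searched on both strands for TGACNNNGC, the core of the antioxidant response element, and TGATGNAAN, the core of the CHOP-ATF4 composite element of amino acid stress genes. The 3 sequences shown are those of Gclm, a ligase subunit, and of the subunits of the cystine transporter, Slc7a11 and Slc3a2, whose levels are set side by side below. They give the 250 bases before the start, 5′ to 3′ on the gene's strand, with motif matches in capitals. The start that RefSeq gives for Slc3a2 lies inside the span listed for the gene in the deposited tables (chr19:8706882-8723369, minus strand), so its window is not the sequence before that span's 5′ end, which was not searched.
Gclm (chr3:122245307-122245556, plus strand): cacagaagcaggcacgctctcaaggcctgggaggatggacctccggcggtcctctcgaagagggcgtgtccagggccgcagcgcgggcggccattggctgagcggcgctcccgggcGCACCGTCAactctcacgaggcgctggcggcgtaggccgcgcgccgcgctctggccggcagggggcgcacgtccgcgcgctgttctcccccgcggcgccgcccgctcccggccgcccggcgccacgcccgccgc
Slc7a11 (chr3:50443614-50443863, minus strand): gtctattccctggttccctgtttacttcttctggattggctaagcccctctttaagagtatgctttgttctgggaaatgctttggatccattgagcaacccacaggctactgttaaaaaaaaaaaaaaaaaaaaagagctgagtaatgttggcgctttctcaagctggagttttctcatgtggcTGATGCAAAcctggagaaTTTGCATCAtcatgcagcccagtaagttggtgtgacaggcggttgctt
Slc3a2 (chr19:8713898-8714147, minus strand): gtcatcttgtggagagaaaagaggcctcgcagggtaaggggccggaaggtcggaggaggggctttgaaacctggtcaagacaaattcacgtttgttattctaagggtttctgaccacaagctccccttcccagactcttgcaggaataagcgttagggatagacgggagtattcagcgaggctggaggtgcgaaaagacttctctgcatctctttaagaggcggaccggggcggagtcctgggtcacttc
Gclm held 1 match to TGACNNNGC, on the opposite strand with its first base 134 bases before the start (TGACGGTGC). Slc7a11 held 2 matches to TGATGNAAN, both TGATGCAAA, 1 on the gene's strand from 66 bases before the start and 1 on the opposite strand from 48 bases before it. The Slc3a2, Gss, Glrx and Cbs windows held neither set of letters. Of all 32851 promoter windows of the same 300 bases, 12.4% held TGACNNNGC and 3.95% held TGATGNAAN, and a match is a description of letters only.

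Gss, the enzyme that completes glutathione, passed the threshold in neither pair. It stood at 43.3, 48.8 and 51.1 CPM in labelled knockout and at 45.9, 37.3 and 41.1 CPM in D29H, with overlapping libraries and a change of -0.21 on the log2 scale (SE 0.11, 95% interval -0.42 to 0.01, adjusted p = 0.241). In the Keap1 pair it stood at 60.6, 60.5 and 64.2 CPM in wild type and at 72.7, 65.0 and 81.9 CPM in R554Q. Every R554Q library was above every wild-type library, and the change of 0.25 on the log2 scale (SE 0.09, interval 0.06 to 0.44) missed the threshold at an adjusted p of 0.0961. It passed without R554Q replicate 2 (0.33, adjusted p = 0.0458). It also passed with GC and length offsets and a replicate block together (0.28, 0.0442), although replicate numbers do not pair the libraries. Gss (ENSMUSG00000027610, chr2:155563181-155592810, minus strand) overlaps Acss2 on the other strand, whose counts came to 10.2% of those of Gss, and whether counting used strand is not given in the sources used here.

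Gsr, glutathione reductase, which returns oxidised glutathione to its reduced form with NADPH, was higher with Cre in both pairs. It stood at 28.9, 31.3 and 35.9 CPM in labelled knockout and at 43.1, 45.1 and 41.6 CPM in D29H, 1.35-fold higher (log2 0.43, SE 0.11, adjusted p = 0.0202). It stood at 31.5, 31.6 and 35.7 CPM in wild type and at 55.9, 54.9 and 63.9 CPM in R554Q, 1.78-fold higher (log2 0.83, SE 0.09, adjusted p = 1.26e-05). Neither pair overlapped. The D29H call was lost without D29H replicate 2 (adjusted p = 0.117), D29H replicate 3 (0.0955), labelled-knockout replicate 1 (0.0682) or labelled-knockout replicate 2 (0.0934), with the log2 fold change between 0.36 and 0.53 over all 6 omissions. Gsr (ENSMUSG00000031584, chr8:33652523-33698163, plus strand) most resembled Prkar2b, a regulatory subunit of protein kinase A (root-mean-square difference 0.12), Ahr, the aryl hydrocarbon receptor (0.13), and Ppard, a nuclear receptor (0.14).

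Glrx, the cytosolic glutaredoxin that uses glutathione to reduce protein disulfides, passed the threshold in neither pair. It stood at 12.1, 11.8 and 14.2 CPM in labelled knockout against 12.6, 12.7 and 12.7 CPM in D29H (log2 fold change -0.0032, SE 0.12, interval -0.26 to 0.25, adjusted p = 0.991). In the Keap1 pair it stood at 8.10, 9.88 and 8.35 CPM in wild type against 10.4, 7.97 and 11.4 CPM in R554Q (0.18, SE 0.15, interval -0.13 to 0.49, adjusted p = 0.481). Libraries overlapped in both pairs. The direction in the Nrf2 pair turned with upper-quartile scaling (0.02). Glrx lies on chr13:75839868-75850151, plus strand (ENSMUSG00000021591).

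**Figure D1:**
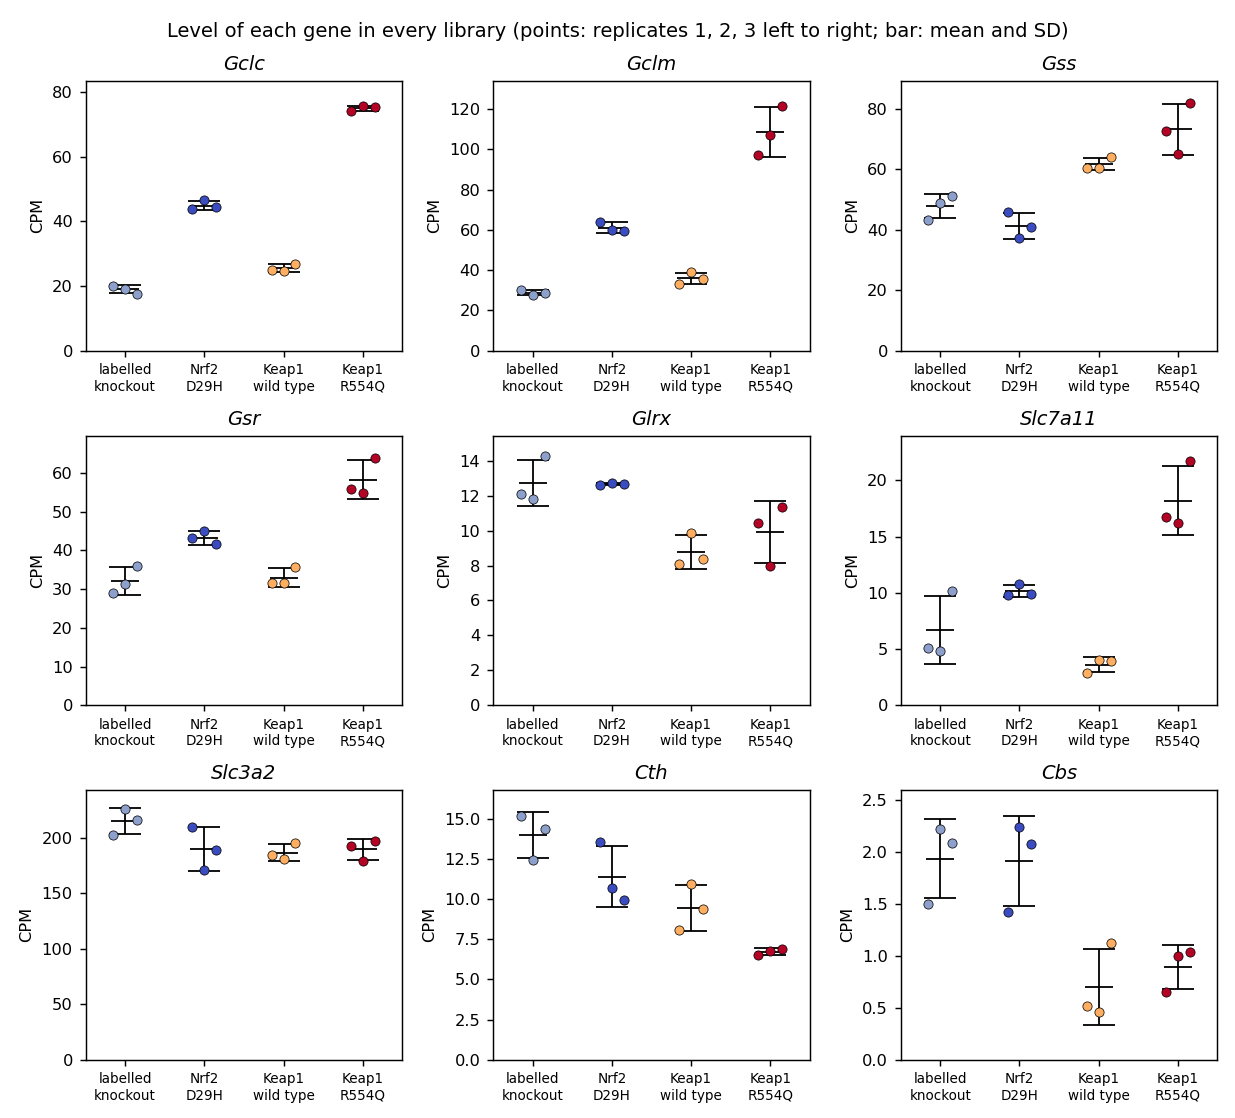
Level of each of the 9 genes in CPM (vertical axes, from 0) in the 12 libraries. Points are libraries, with replicates 1, 2 and 3 from left to right, and bars give the group mean and SD; Gclc, Gclm and Gsr are above their control libraries in both pairs, and 1 labelled-knockout library of Slc7a11, replicate 3 at 10.2 CPM, lies within the D29H range.

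Slc7a11, the cystine-glutamate exchanger, had the greatest rise of the 9 genes in R554Q and did not pass the threshold in D29H. In Keap1 wild type it stood at 2.84, 4.05 and 3.91 CPM and in R554Q at 16.7, 16.2 and 21.7 CPM, so that the groups lay far apart. The log2 fold change was 2.35 (SE 0.16, interval 2.01 to 2.68, 5.09-fold, adjusted p = 2.29e-08), at rank 12 of the 14128 genes tested. In labelled knockout it stood at 5.06, 4.82 and 10.2 CPM and in D29H at 9.84, 10.8 and 9.90 CPM. Replicate 3 of labelled knockout was inside the D29H range, while replicates 1 and 2 were well below it. The log2 fold change was 0.65 (SE 0.20, interval 0.24 to 1.05, 1.56-fold, adjusted p = 0.0547), just short of the threshold. It passed with a replicate block (0.68, adjusted p = 0.00795), although replicate numbers do not pair the libraries. It also passed without a filter on low counts (0.64, 0.00160) and without labelled-knockout replicate 3 (1.05, 2.48e-05). That library was the shallowest of the 12, and its 156 Slc7a11 reads compare with 118 and 115 in the other labelled-knockout libraries. The gene is ENSMUSG00000027737, chr3:50364936-50443613, minus strand.

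Slc3a2, the 4F2 heavy chain that carries SLC7A11 and several other light chains to the membrane, was the most abundant of the 9 genes per length and passed the threshold in neither pair. It stood at 202, 226 and 215 CPM in labelled knockout and at 209.7, 170.5 and 189 CPM in D29H (log2 fold change -0.18, SE 0.11, interval -0.40 to 0.04, adjusted p = 0.320). In wild type it stood at 184, 180.4 and 195 CPM and in R554Q at 193, 179 and 196 CPM (0.03, SE 0.08, interval -0.13 to 0.19, adjusted p = 0.853). Libraries overlapped in both pairs, and the R554Q direction turned with offsets for GC content and length (-0.0074). The ratio of Slc3a2 to Slc7a11 FPKM spanned 29.7 to 212 over the libraries. Its mean was 174 ± 34.4 (SD, n = 3) in wild type, 118 ± 43.7 in labelled knockout, 61.5 ± 9.04 in D29H and 34.6 ± 4.28 in R554Q. The labelled-knockout libraries gave 131, 154 and 69.3, the last of them the library that was high for Slc7a11. The heavy chain's transcript was thus in excess of the light chain's in every library. Slc3a2 is ENSMUSG00000010095, chr19:8706882-8723369, minus strand.

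Neither gene that makes cysteine from methionine was called higher in D29H or in R554Q against its own control. Cth, cystathionine gamma-lyase, which releases cysteine from cystathionine, stood at 15.2, 12.4 and 14.4 CPM in labelled knockout and at 13.5, 10.7 and 9.94 CPM in D29H (log2 fold change -0.30, SE 0.14, interval -0.58 to -0.02, adjusted p = 0.187). In wild type it stood at 8.05, 10.9 and 9.37 CPM and in R554Q at 6.51, 6.75 and 6.92 CPM. Each R554Q library was below each wild-type library, and the change of -0.48 on the log2 scale (SE 0.14, 0.715-fold) only just passed at an adjusted p of 0.0495. Leaving out R554Q replicate 1 (adjusted p = 0.165), R554Q replicate 2 (0.110), wild-type replicate 2 (0.276) or wild-type replicate 3 (0.118) lost that call. So did a replicate block (adjusted p = 0.0807), a single fit of all 12 libraries (0.0575), upper-quartile scaling (0.0506), a mean count of at least 50 (0.0524) and offsets for GC content and length, which moved the change to -0.31 (0.196). Leaving out D29H replicate 1 brought the D29H change to -0.44 at an adjusted p of 0.0363. Cth is ENSMUSG00000028179, chr3:157894248-157925077, minus strand.

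Cbs, cystathionine beta-synthase, which makes cystathionine from homocysteine and serine, was the least abundant of the 9 genes per length by its mean over the groups, and its counts were too low for a firm statement. It had 35, 53 and 32 reads in labelled knockout, 31, 50 and 46 in D29H, 11, 9 and 21 in wild type and 13, 22 and 21 in R554Q. The log2 fold changes were -0.01 (interval -0.56 to 0.54, adjusted p = 0.986) and 0.38 (interval -0.45 to 1.21, adjusted p = 0.595), with overlapping libraries in both pairs, and leaving out 1 library moved the second to between 0.15 and 0.87. The direction in the Nrf2 pair turned with upper-quartile scaling (0.01). Cth FPKM was 6.55 to 33.0 times Cbs FPKM in every library. Cbs is ENSMUSG00000024039, chr17:31612623-31637199, minus strand.

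**Figure D2:**
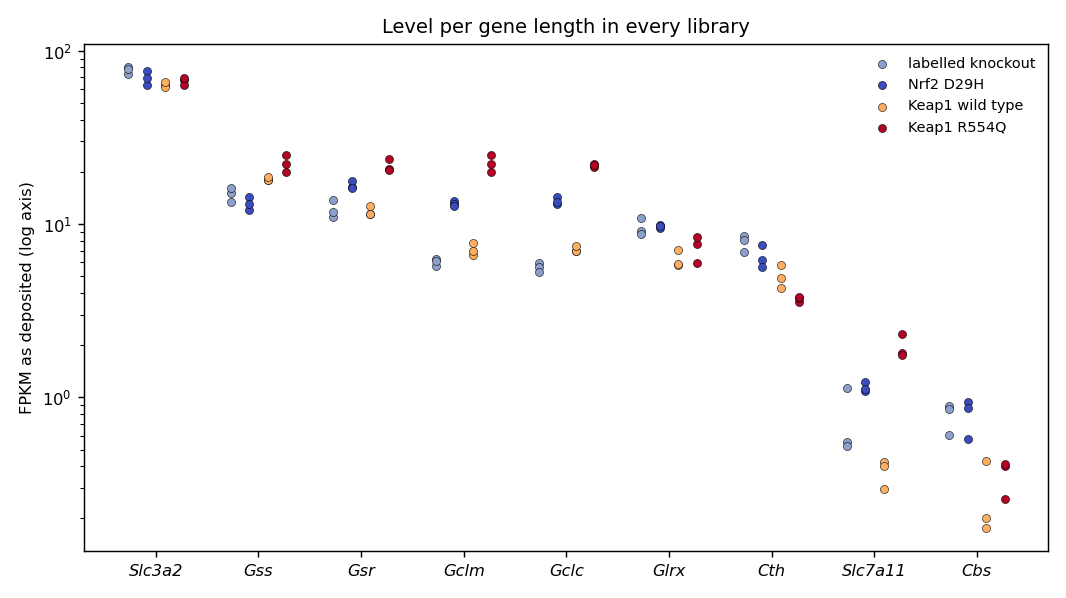
FPKM as deposited (vertical log axis) of the 9 genes in the 12 libraries, each point a library and each colour a group, with genes ordered by their mean. Slc3a2 is the highest in every library, Gclc and Gclm lie at the same height within each group, and Slc7a11 and Cbs lie lowest.

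Counted together, 3 of the 9 genes were called for D29H against labelled knockout, all higher, where 4.75% of the 14370 genes tested were called, 3.47% higher and 1.28% lower. For R554Q against wild type 4 were called higher (Slc7a11, Gclm, Gclc and Gsr) and 1 lower (Cth), where 6.17% of 14128 genes were called, 3.77% higher and 2.4% lower. Libraries did not overlap for 3 genes, higher, in the Nrf2 pair (12.4% of all genes higher, 13% lower) and for 5 higher and 1 lower in the Keap1 pair (14% higher, 13.5% lower). The median log2 fold change of the 9 was -0.0032 in the first comparison and 0.38 in the second, against 0.00043 and -0.00099 for all genes tested. The authors' deposited table called 3 of the 9 higher in the Nrf2 pair and 4 in the Keap1 pair and none lower, since Cth there had an adjusted p of 0.0553.

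**Figure D3:**
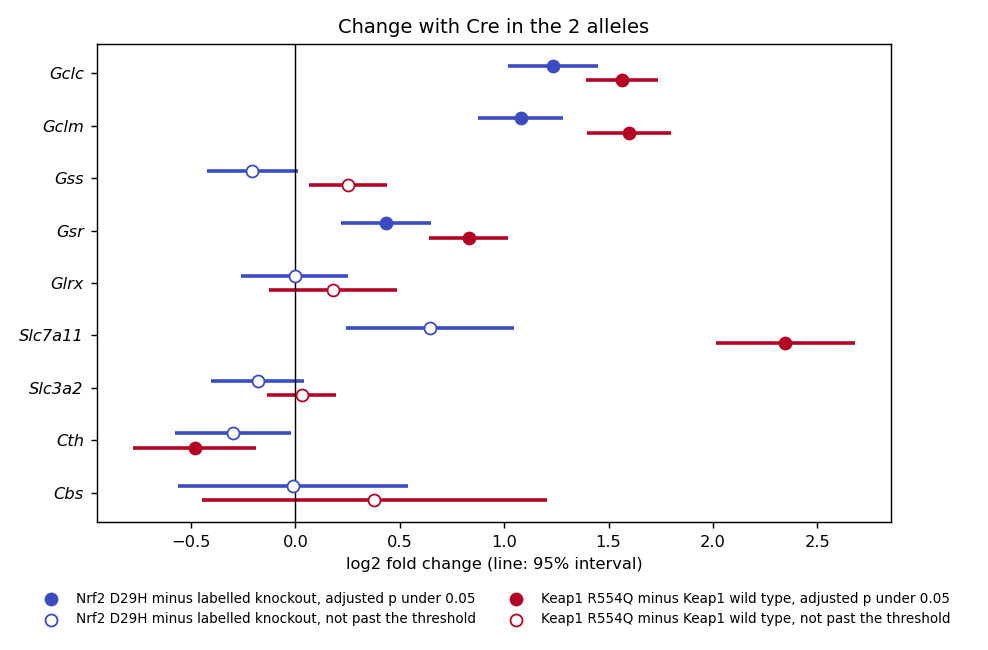
Log2 fold change (horizontal axis) of the 9 genes in the 2 comparisons, with 95% intervals as lines and filled points where the adjusted p was under 0.05. Gclc, Gclm and Gsr are filled in both comparisons, Slc7a11 and Cth in R554Q alone, and Slc7a11 has the widest gap between its points.

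Whether a gene changed by different amounts in the 2 pairs was tested with an interaction contrast in 1 fit of all 12 libraries. It sets the D29H change from labelled knockout against the R554Q change from Keap1 wild type. Allele, control group, culture and table cannot be told apart in it, and it is called the difference between the alleles for short. Only 4 of 14794 genes (0.027%) passed, and Slc7a11 was the only one of the 9, 1 of 3 called lower (0.0203% of genes). With DESeq2 26 genes were called higher and 27 lower, and without a filter on low counts 17 and 15. Leaving out a library moved the counts over all genes from 1 higher and 3 lower to between 0 and 11 higher and 0 and 15 lower, the most without D29H replicate 1, and none was called without D29H replicate 2 or 3, R554Q replicate 1 or wild-type replicate 1. For Slc7a11 the D29H change minus the R554Q change was -1.69 on the log2 scale (SE 0.30, interval -2.30 to -1.08, adjusted p = 0.0436). Both ends of the comparison enter this: the D29H libraries were below R554Q, and the labelled-knockout libraries were above wild type. Without labelled-knockout replicate 3 the difference was -1.30 and still past the threshold. The call was lost when D29H replicate 2 (adjusted p = 0.143), D29H replicate 3 (0.160), R554Q replicate 1 (0.0962), R554Q replicate 3 (0.0733), wild-type replicate 1 (0.208), replicate 2 (0.0676) or replicate 3 (0.0743) was left out, with the difference between -1.88 and -1.30 over all omissions. It was also lost with upper-quartile scaling (adjusted p = 0.0541), a mean count of at least 50 (0.0627) and a replicate block (0.160), so that it held in 9 of 19 alternatives.

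The other 8 genes did not pass that test, which does not show that the alleles act alike on them. The difference was -0.32 for Gclc (interval -0.57 to -0.07, adjusted p = 0.332), -0.51 for Gclm (-0.79 to -0.24, 0.165), -0.45 for Gss (-0.74 to -0.16, 0.272) and -0.39 for Gsr (-0.67 to -0.10, 0.327). For Gclm DESeq2 gave -0.53 at an adjusted p of 0.0332, past the threshold. The intervals of Glrx (-0.56 to 0.21), Slc3a2 (-0.46 to 0.06), Cth (-0.22 to 0.60) and Cbs (-1.37 to 0.61) included 0.

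Between the tables, allele, culture and table cannot be told apart, so levels are set side by side with their tests and no more. Of all genes 19.7% were called between the groups with empty virus. Labelled knockout was lower than Keap1 wild type for 3 of the 9 genes, where 10.1% of genes were called lower: Gclc (-0.42, SE 0.09, adjusted p = 0.00147), Gclm (-0.32, SE 0.10, 0.0212) and Gss (-0.37, SE 0.10, 0.00940). The 1493 genes called lower came to 984 without wild-type replicate 1. It was higher for 4, where 9.58% were called higher: Cbs (1.47, SE 0.34, 0.00356), Slc7a11 (0.85, SE 0.23, 0.0107), Cth (0.57, SE 0.14, 0.00472) and Glrx (0.53, SE 0.13, 0.00676). The ligase and the synthetase were thus lower, and the cystine exchanger and the methionine route higher, in labelled knockout. Macrophage markers differed between the tables as well: Csf1r stood at 18.3 to 19.4 CPM in labelled knockout and 17.3 to 18.5 in D29H against 6.63 to 8.09 in wild type and 6.70 to 8.11 in R554Q, and their part in the differences between the tables was not tested. Slc7a11 was no longer called without labelled-knockout replicate 3 (0.46, adjusted p = 0.0829) or wild-type replicate 1 (0.71, 0.0660). Gclm lost its call without labelled-knockout replicate 2 (adjusted p = 0.0970) or wild-type replicate 2 (0.140) or 3 (0.0626), and Gss without labelled-knockout replicate 1 (0.0636) or wild-type replicate 3 (0.0554).

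Between the groups with Cre 26.5% of genes were called. D29H was lower than R554Q for 5 of the 9 genes, where 13.4% of genes were called lower: Slc7a11 (-0.84, SE 0.19, adjusted p = 0.00198), Gclm (-0.83, SE 0.09, 5.93e-07), Gss (-0.82, SE 0.10, 2.28e-06), Gclc (-0.74, SE 0.08, 6.18e-07) and Gsr (-0.43, SE 0.09, 0.00188). These are the enzymes that make and reduce glutathione, with the cystine exchanger. It was higher for 3, where 13.1% were called higher: Cbs (1.09, SE 0.32, 0.0158), Cth (0.76, SE 0.14, 0.000422) and Glrx (0.35, SE 0.13, 0.0493). The Glrx call was lost in 13 of 18 alternatives, and of the 12 omissions of 1 library only those of labelled-knockout replicate 3 and R554Q replicate 3 kept it, with adjusted p from 0.0219 to 0.249 over the 18. The Cbs call was lost without D29H replicate 2 (0.0740), D29H replicate 3 (0.0564) or R554Q replicate 1 (0.0813).

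D29H against Keap1 wild type had 33% of genes called. D29H was higher for 6 of the 9 genes, where 17% of genes were called higher, and lower for 1, where 16% were called lower. Those 2368 lower genes came to 1529 without D29H replicate 2, 1569 without D29H replicate 3 and 1562 without wild-type replicate 2. Slc7a11 was 2.83-fold higher (SE 0.22 on the log2 scale, adjusted p = 2.43e-05). On the log2 scale Cbs was 1.46 higher (SE 0.34, 0.00247), Gclc 0.82 (SE 0.08, 2.86e-07), Gclm 0.76 (SE 0.09, 2.74e-06), Glrx 0.53 (SE 0.13, 0.00441) and Gsr 0.39 (SE 0.10, 0.00363). Gss was lower, at -0.58 (SE 0.10, adjusted p = 0.000156). Cth was at 0.27 (SE 0.14, adjusted p = 0.139), and with GC and length offsets it was called higher too (0.39, 0.0165). Slc3a2 was called in none of the 6 comparisons. It was 0.20 higher in labelled knockout than in wild type (interval 0.02 to 0.39, adjusted p = 0.119), the furthest it lay from 0.

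The order of the 4 group means differed by gene. Gsr ran from labelled knockout and wild type, which overlapped, to D29H and then R554Q. Slc7a11 ran from wild type to labelled knockout and D29H, which overlapped, and then R554Q. Gss ran from D29H and labelled knockout, which overlapped, to wild type and R554Q. Glrx and Cbs were lower in the Keap1 groups than in the Nrf2 groups, with overlap inside each pair, Cth was lowest in R554Q with the other 3 groups overlapping in turn, and all neighbours overlapped for Slc3a2. Slc7a11 had no close match among the 10345 genes: the nearest were Ednrb, the endothelin B receptor (root-mean-square difference 0.46), Abcc4, an organic anion exporter (0.48), and Gclm (0.48).

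Genes around the pathway were taken from lists written from general knowledge. The lists were chosen with earlier results of these data known, so their counts are a description and not an independent check. Of 17 genes that break down glutathione or move it across membranes, 13 could be tested for D29H against labelled knockout and 12 for R554Q against wild type. The list's median log2 fold change was -0.11 and -0.03, against 0.00043 and -0.00099 for all genes. Abcc1, an exporter of glutathione and its conjugates, rose in both pairs: it stood at 99.9, 100.3 and 102 CPM in labelled knockout and at 159, 199 and 186 CPM in D29H (0.85, SE 0.11, adjusted p = 2.04e-05), and at 115, 130.1 and 124 CPM in wild type and 231, 224 and 227 CPM in R554Q (0.89, SE 0.08, 7.12e-07). Oplah, 5-oxoprolinase, which recovers glutamate from a breakdown product of glutathione, rose in R554Q (0.53, SE 0.15, adjusted p = 0.0458) from 5.67 to 6.27 CPM to 6.91 to 9.98 CPM. So 1 of the 13 was called higher in D29H, where 3.47% of all genes were, and 2 of the 12 in R554Q, where 3.77% were. No gene of the list was called lower in either pair (1.28% and 2.4% of all genes). Leaving out D29H replicate 1 gave 2 called higher and 2 lower, but calls rose over all genes too, to 1194 higher and 998 lower from 498 and 184. Leaving out R554Q replicate 3 gave 2 lower, with 1533 higher and 1342 lower over all genes, from 533 and 339. Leaving out labelled-knockout replicate 1 gave 2 higher. Without R554Q replicate 2 or any 1 of the wild-type replicates, 1 gene was called higher in R554Q, where 193 to 302 of all genes were.

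Of 20 genes of the methionine cycle and of cysteine's other uses, 16 could be tested in either pair, with median log2 fold changes of -0.10 and -0.03. Cdo1, cysteine dioxygenase, which commits cysteine to oxidation, was lower in both: it stood at 30.03, 28.8 and 34.0 CPM in labelled knockout and 24.0, 22.3 and 21.9 CPM in D29H (-0.44, SE 0.11, adjusted p = 0.0204), and at 19.9, 22.6 and 17.5 CPM in wild type and 14.5, 13.8 and 15.7 CPM in R554Q (-0.45, SE 0.11, 0.0284). Csad, cysteine sulfinate decarboxylase, the next enzyme toward taurine, was higher in both (0.53, SE 0.13, adjusted p = 0.0177 in D29H and 0.34, SE 0.10, 0.0494 in R554Q). Sqor, sulfide quinone oxidoreductase, was higher in R554Q (0.65, SE 0.13, adjusted p = 0.00582). So 1 of the 16 was called higher and 1 lower in D29H, where 3.47% of all genes were called higher and 1.28% lower. In R554Q 2 of the 16 were called higher and 1 lower, against 3.77% and 2.4% of all genes. Leaving out a library moved these counts to between 0 and 1 higher and 0 and 2 lower in D29H and to between 0 and 2 higher and 0 and 1 lower in R554Q. For the lower call of D29H, D29H replicates 2 and 3 and labelled-knockout replicate 3 gave 0 and D29H replicate 1 gave 2, and for its higher call D29H replicates 2 and 3 gave 0. These omissions left 9 to 120 genes called lower in all, from 184, other than D29H replicate 1 with 998, and 72 and 85 called higher without D29H replicates 3 and 2. In R554Q the lower call was lost without R554Q replicate 1 or 2 or wild-type replicate 1 or 2, where 48 to 137 of all genes were called lower, from 339, and R554Q replicate 1 left 0 higher while R554Q replicate 2 and each wild-type replicate left 1, where 186 to 302 of all genes were called higher, from 533.

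Of 15 genes for the other light chains that pair with SLC3A2 and for carriers of glutamate, glutamine and glycine, 11 could be tested, with medians of -0.04 and -0.06. Only Slc6a9, a glycine transporter, was called, higher in D29H (0.43, SE 0.13, adjusted p = 0.0497), which is 1 of 11 where 3.47% of all genes were called higher. It lay at 0.40 in R554Q (SE 0.12, adjusted p = 0.0593), and the difference between the alleles was 0.04 (interval -0.33 to 0.40, adjusted p = 0.959). Its D29H call was lost without D29H replicate 2 or 3 or any labelled-knockout replicate, and leaving out D29H replicate 1 gave 3 genes of the list called lower, where 998 of all genes were. Leaving out R554Q replicate 3 gave 1 higher and 2 lower in R554Q, where 1533 and 1342 of all genes were. The 3 other glutaredoxins (Glrx2, Glrx3 and Glrx5) had no call in either pair (medians 0.01 and -0.13), with 1 called lower in R554Q without its replicate 3.

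ATF4 is the transcription factor of amino acid shortage, and the list of its targets holds Atf4 itself and shares Chac1 and Slc7a5 with the lists above. In R554Q 7 of the 18 genes tested were called lower, where 2.4% of all genes were, and 1 was called higher, where 3.77% were, with a median log2 fold change of -0.27 against -0.00099 for all genes. Psph and Psat1, enzymes of serine synthesis, were lower, at -0.58 (SE 0.09, adjusted p = 0.000543) and -0.45 (SE 0.10, 0.0101) on the log2 scale. Asns, asparagine synthetase, was at -0.41 (SE 0.09, adjusted p = 0.00920) and Mthfd2, a mitochondrial folate enzyme, at -0.41 (SE 0.08, 0.00470). Cebpb, a transcription factor, was the gene that rose (0.91, SE 0.12, adjusted p = 0.000115). Atf4, 1 of the 7 lower genes and named after its values were seen, stood at 266, 261 and 275 CPM in wild type and at 227, 204 and 211 CPM in R554Q (-0.31, SE 0.08, adjusted p = 0.0244). The lower count was 3 without R554Q replicate 1 and 4 without wild-type replicate 2, where calls of lower genes fell from 339 to 52 and 48 over all genes. The higher count was 3 without R554Q replicate 3, where 1533 of all genes were called higher. In D29H 0 of the 18 were called, with a median of -0.19, and 7 were called lower without D29H replicate 1, where calls of lower genes rose from 184 to 998 over all genes. Without labelled-knockout replicate 3 2 were called lower, where 120 of all genes were. None of the 18 differed between the alleles past the threshold.

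**Figure D4:**
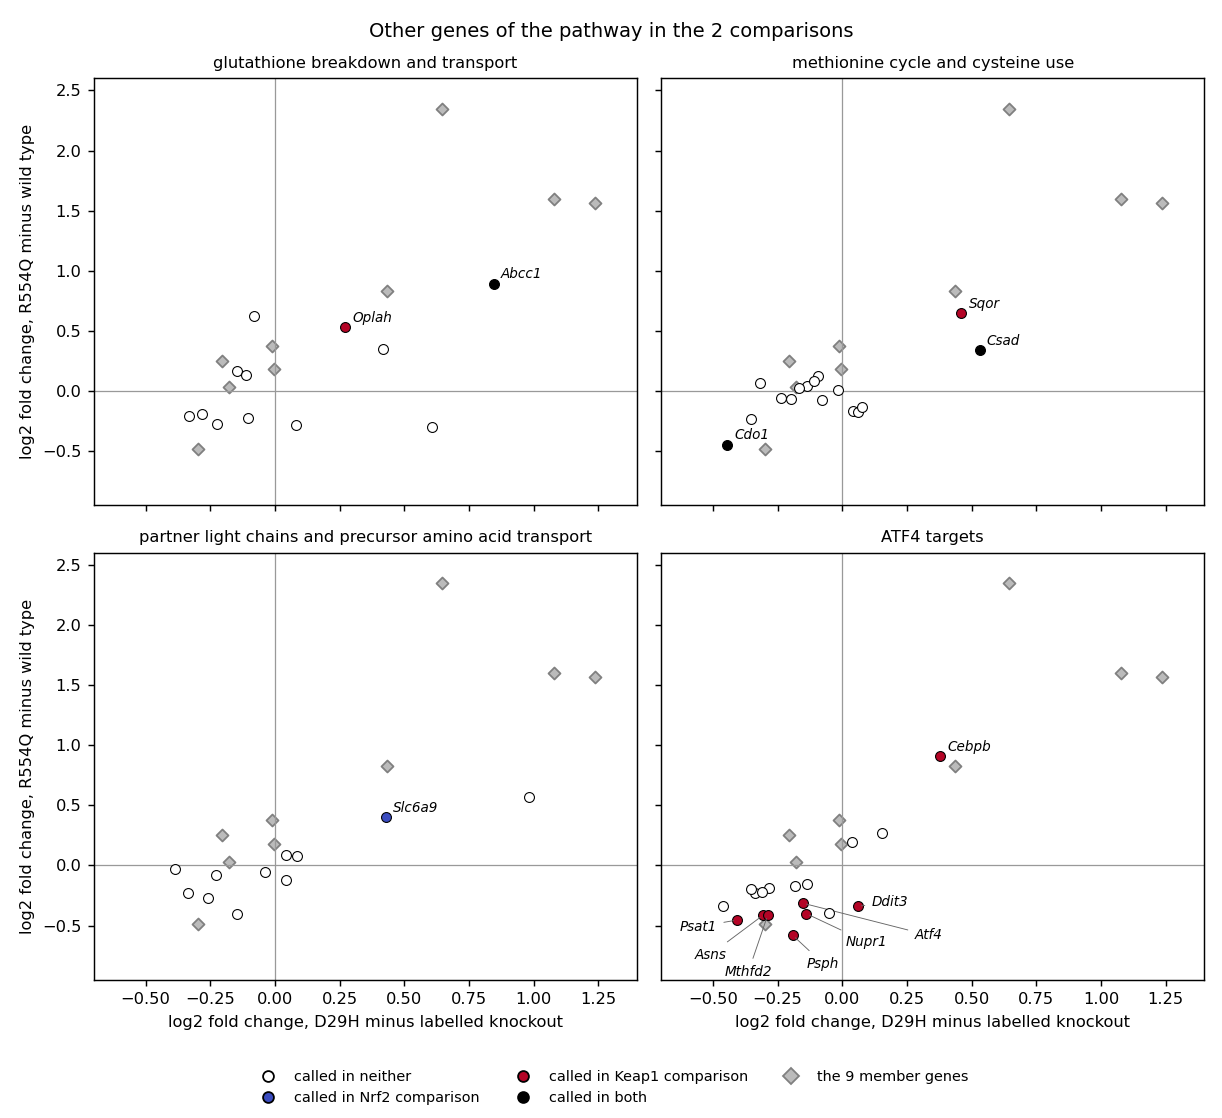
Log2 fold change for R554Q minus wild type (vertical axis) against that for D29H minus labelled knockout (horizontal axis), 1 panel for each of 4 lists, with circles for list genes, coloured by where they were called, and grey diamonds for the 9 genes. Abcc1, Csad and Cdo1 are called in both comparisons, and most circles lie near 0 or, for ATF4 targets, below it on the vertical axis.

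Among 8 regulators (Nfe2l2, Keap1, the small MAF proteins, BACH repressors and Nfe2l1), Mafg, a small MAF that dimerises with NRF2 on antioxidant response elements, was the only one called, 1 of 8 in each pair, where 3.47% of all genes were called higher in D29H and 3.77% in R554Q, and the medians were 0.13 and 0.03. Mafg was higher in D29H (0.54, SE 0.11, adjusted p = 0.00892) and in R554Q (0.49, SE 0.09, 0.00478). The D29H call was lost without D29H replicate 2 or 3, and 2 regulators were called higher without D29H replicate 1, where 1194 of all genes were. Nfe2l2 stood at 49.6, 57.1 and 52.4 CPM in D29H, above all 3 labelled-knockout libraries, at 0.31 on the log2 scale (SE 0.10, adjusted p = 0.0713). That passed the threshold without D29H replicate 1 (0.36, adjusted p = 0.0281), with GC and length offsets (0.38, 0.0379) and with these and a replicate block (0.38, 0.0474). In R554Q Nfe2l2 was at -0.07 (SE 0.10, adjusted p = 0.718). Keap1 was at 0.12 (SE 0.11, adjusted p = 0.510) in D29H and 0.03 (SE 0.09, 0.871) in R554Q.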

How the data were processed

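Per the file headers, the authors deposited read counts per gene and FPKM for each library, in 1 table per allele. The submitters' processing notes name STAR, DESeq2 and mm10; how reads were counted, and with which annotation, is not given in the sources used here. The authors' deposited log2 fold changes, p-values and mean normalised counts (a signal) entered no test.

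Counts were tested with edgeR 4.0.16 in R 4.3.3: filterByExpr (minimum 10), TMM scaling, the quasi-likelihood test, and Benjamini-Hochberg adjustment over all genes, with calls at 0.05. Comparisons within a table used its 6 libraries, others 1 fit of 12 over genes in both tables. CPM were scaled over 12 libraries. SEs come from the fold change and its F statistic. The test was checked on simulated counts. Replicates differed beyond sampling noise (chi-square per degree of freedom 4.95 to 25.1). Likeness compared log2 CPM (prior count 2) of protein-coding genes averaging 100 counts or more.

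Other genes were named as up to 5 called genes per list, by size of change, with Nfe2l2, Keap1 and the 3 nearest by likeness. The 9 genes and the lists were chosen with earlier results of these data known. Replicate numbers do not pair libraries (correlation of same-numbered deviations -0.215 to 0.0398). Alternatives were other scalings and filters, DESeq2 1.42.0, a replicate block, 1 fit of 12 libraries and omission of each library; offsets for GC content and length were added after the data were seen.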

Additional observations from a re-analysis of the deposited data

Results flagged for a closer look

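Slc7a11 passed the test of a difference between the D29H and R554Q changes in the fit of 12 libraries. That call was lost in 10 of 19 alternatives, with adjusted p from 0.000799 to 0.208. Its D29H change minus its R554Q change was -1.69 on the log2 scale (SE 0.30, adjusted p = 0.0436 in edgeR's quasi-likelihood test of the difference over 14794 genes), 3.22-fold less. It was singled out because a test of the difference itself passed the threshold. All 3 R554Q libraries (16.2 to 21.7 CPM) lay above all 3 D29H libraries (9.84 to 10.8 CPM), and wild type (2.84 to 4.05 CPM) lay below labelled knockout (4.82 to 10.2 CPM). Allele, control group, culture and table cannot be told apart in this difference.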

How the results depend on the processing

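Gclc and Gclm kept their calls in both pairs under all 15 alternatives to each, with log2 fold changes of 1.19 to 1.28 and 1.04 to 1.11 in D29H and 1.54 to 1.60 and 1.52 to 1.67 in R554Q, as did Slc7a11 (2.19 to 2.45) and Gsr (0.76 to 0.89) in R554Q. Over all single-gene values 872 kept direction and side of the threshold, 47 lost a call, 11 gained one and 25 changed sign, all of them for genes not called. The causes were not tested. The largest shift of the median of all genes under another scaling was 0.03 (log2).

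Signs turned for Glrx in D29H minus labelled knockout (0.019 with upper-quartile scaling, 0.016 with a mean count of at least 50, 0.037 with GC and length offsets, 0.035 with these and a replicate block, -0.061 to 0.085 leaving out a library) and for Cbs there (0.010 with upper-quartile scaling, -0.18 to 0.16 leaving out a library). Slc3a2 turned in D29H minus R554Q (-0.0021 with RLE scaling and with DESeq2, -0.0015 without a filter, -0.084 to 0.077 leaving out a library), in D29H minus wild type (-0.0086 with offsets, -0.053 to 0.11 leaving out a library) and in R554Q minus wild type (-0.0074 with offsets, -0.0085 with the block too). Nfe2l2 turned in R554Q minus wild type (0.013 with offsets, 0.0077 with the block too, -0.17 to 0.046 leaving out a library) and Gsr in labelled knockout minus wild type (-0.13 to 0.027 leaving out a library).

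The single lower call in R554Q minus wild type (Cth) fell to 0 with upper-quartile scaling, a mean count of at least 50, a replicate block, all 12 libraries in 1 fit, offsets, offsets with the block, and was 0 to 1 leaving out a library. That of the difference between the alleles (Slc7a11) fell to 0 with upper-quartile scaling, a mean count of at least 50 and the replicate block, and was 0 to 1 leaving out a library. Leaving out a library gave 0 to 1 lower in D29H minus labelled knockout, 1 to 3 higher in D29H minus R554Q and 1 to 3 lower in labelled knockout minus wild type. Order by deposited FPKM was that of CPM for 6 of 9 genes.

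Replicate numbers do not pair libraries. With the replicate block Slc7a11 in D29H was 0.68 (adjusted p = 0.00795), Cth in R554Q -0.48 (0.0807) and the Slc7a11 difference -1.65 (0.160). Genes called higher and lower were then 524 and 204 in D29H and 327 and 157 in R554Q, against 498 and 184, and 533 and 339. Without a filter Slc7a11 in D29H was called (0.64, adjusted p = 0.00160), and 739 and 456 genes in D29H and 825 and 677 in R554Q. DESeq2 called 463 and 304 in D29H, and 26 and 27 for the difference against 1 and 3. Offsets gave 301 and 202 in R554Q, with the block 284 and 184, and with the block 329 higher in D29H. Without a filter the difference had 17 and 15. Leaving out a library gave 72 to 1194 and 9 to 998 in D29H, the highest without D29H replicate 1, and 186 to 1533 and 48 to 1342 in R554Q, the highest without R554Q replicate 3. Depth limits Cbs, with 9 to 53 reads a library.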
